A study of Mus musculus with 20 samples.

Results

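MHC class I antigen presentation was followed through 10 genes of the pathway in mouse mammary epithelial cells: H2-K1, H2-D1, H2-T23, B2m, Tap1, Tap2, Tapbp, Psmb8, Psmb9 and Nlrc5. They were taken by gene name from the 54986 genes of the expression table, and each name matched 1 gene. Of the 10 genes, 6 had at least 1 CPM (read counts scaled to the size of the library, deposited as counts per 1e+06 reads) in at least 2 of the 20 libraries and entered the test of 17106 genes, and the other 4, Tap2, Psmb8, Psmb9 and Nlrc5, did not. Tap1 entered the test only through the M1P and L1P libraries, where it is high.

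Class I molecules display peptides from inside the cell to cytotoxic T cells. Each consists of a heavy chain, such as those encoded by H2-K1 and H2-D1, and the invariant light chain β2-microglobulin (B2m). Peptides are cut by the proteasome, in which the inducible subunits Psmb8 and Psmb9 can replace the standard ones, pumped into the endoplasmic reticulum by the transporter Tap1/Tap2, and loaded with the help of tapasin (Tapbp). Nlrc5 is a transactivator of class I genes, and interferons, above all interferon-γ, are the known inducers of most genes of the pathway. H2-T23 encodes Qa-1, a nonclassical heavy chain that presents signal peptides of other class I chains to natural killer cells.

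NMuMG is an epithelial cell line from normal murine mammary gland. RNA from 10 conditions, each in 2 libraries, was sequenced, and the libraries fall into 2 kinds of 10. The first kind holds untreated NMuMG, NMuMG treated with TGFβ, NMuMG carrying an shRNA against hnRNP E1 (E1KD), and the M1P and L1P lines. M1P and L1P were grown in culture from the primary tumor and the lung metastases that E1KD cells formed in NOD/SCID mice, which lack mature T and B cells, and both carry the hnRNP E1 shRNA. The second kind holds NMuMG with an Empty vector, clones 12 and 16 of NMuMG overexpressing the long noncoding RNA Platr18, and E1KD cells with either a scrambled shRNA (E1KD SCR) or an shRNA against Platr18 (E1KD Platr18 KD). Each Platr18-overexpressing line is 1 clone, and E1KD, M1P and L1P are each 1 line in 2 libraries. The Empty vector cells carry no hnRNP E1 shRNA, so E1KD SCR and E1KD Platr18 KD differ from them in hnRNP E1 silencing and in vector together. By the labels, no condition of the first kind carries a control shRNA. Between E1KD and NMuMG, hnRNP E1 silencing, vector and line thus cannot be told apart. No label says that the 2 libraries of a condition came from separate cultures, so p-values measure only the spread between these libraries, which may be technical.

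The targeted genes followed the labels. Pcbp1, which encodes hnRNP E1, had 287 and 312 CPM in NMuMG against 16.6 and 14.21 CPM in E1KD, and 32.3 and 32.3 CPM in Empty vector against 3.28 and 3.46 CPM in E1KD SCR. Platr18, listed as Lncenc1, had 3.06 to 3.68 CPM in Empty vector. It had 3092 and 3096 CPM in clone 12 and 813 and 820 CPM in clone 16. E1KD SCR had 2.92 and 3.10 CPM, overlapping Empty vector, and E1KD Platr18 KD 0.136 and 0.170 CPM. In the first kind it had 1.24 and 1.45 CPM in NMuMG, 2.40 and 2.70 CPM after TGFβ and 17.9 and 14.6 CPM in E1KD. M1P had 25.7 and 26.2 CPM and L1P 76.9 and 73.3 CPM. The control of the Platr18 silencing thus lacked the rise of Platr18 seen in E1KD. The kinds of library stand apart: the mitochondrial ribosomal RNA mt-Rnr2 took 333 to 492 CPM in the first kind and 113874 to 165149 CPM in the second, so levels were compared only within a kind. Within the first kind, E1KD replicate 1 stood apart. Its CPM values summed to 728645 over all genes, against 547491 to 581384 in the other libraries of the first kind. Over 618 genes that mark the second kind, its median CPM was 0.367, against 0.0333 to 0.0777 in those libraries. The second kind had 17.6 to 22.9. These genes were chosen as at least 10-fold higher in the second kind than in the first, with E1KD replicate 1 left out. The other libraries of the first kind were thus low by that choice. The main results of the E1KD libraries are given without replicate 1 as well. In units of 1e+06 reads, the libraries were scaled to 50.8 to 60.0 in the first kind and 63.0 to 147 in the second, so that 3 reads on a gene were worth at most 0.0591 CPM and 0.0477 CPM. The epithelial identity of the cells was carried by Krt8, Krt18 and Cdh1, whereas Epcam and Cldn3 had at most 0.05 CPM in every library and Cldn4, below 0.2 CPM in the other conditions of the first kind, had 18.5 and 20.2 CPM after TGFβ. Of the 5 mesenchymal markers, 4 were called higher in E1KD (Cdh2, Fn1, Vim and Snai1) and 4 after TGFβ (Zeb1, Cdh2, Fn1 and Snai1), and their part in the levels of the members was not tested. Of the 10 leukocyte markers, the macrophage marker Adgre1 was at 0 in all conditions but E1KD Platr18 KD, where it had 1 read, and the summed level of the list was 2.48 to 8.27 CPM across all libraries.

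All members but B2m, on chromosome 2, and Nlrc5 lie on chromosome 17, in the mouse MHC. Their positions on GRCm38 were 33996017 to 34000334 (minus strand) for H2-K1, 35262730 to 35267500 (plus) for H2-D1, 36029773 to 36032856 (minus) for H2-T23, 33915899 to 33929289 (plus) for Tapbp, 34187553 to 34197226 (plus) for Tap1 and 34181988 to 34187765 (minus) for Psmb9. B2m lies at 122147686 to 122153084 (plus) of chromosome 2. Tap1 and Psmb9 are read in opposite directions, and their annotated RefSeq starts lie 226 bases apart, with each start inside the promoter window of the other gene, so that 275 bases belong to both windows.

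The promoter windows of the members whose levels moved most are shown, since H2-K1 and H2-D1 were both higher in hnRNP E1-silenced cells and B2m and Tapbp were both higher after TGFβ. Each runs from 250 bases before to 50 bases after the RefSeq start on GRCm38.p6, and RefSeq windows were found for 8 of the 10 members. Capitals mark matches, on either strand, to 5 short motifs: a κB-like motif (GGGNNTTCC), an interferon-response-like motif (GAAANNGAA), the CCAAT box (CCAAT), the half-site of the cAMP response element (the 5 bases TGACG) and a GAS-like motif (TTCNNNGAA).
H2-K1, chr17:34000298-34000597 (minus strand): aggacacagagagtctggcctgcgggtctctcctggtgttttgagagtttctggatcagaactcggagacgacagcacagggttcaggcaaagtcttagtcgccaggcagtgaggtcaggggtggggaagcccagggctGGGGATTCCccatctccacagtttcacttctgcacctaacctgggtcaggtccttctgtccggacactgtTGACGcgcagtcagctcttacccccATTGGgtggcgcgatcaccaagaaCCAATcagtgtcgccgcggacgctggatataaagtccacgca
H2-D1, chr17:35262844-35263143 (plus strand): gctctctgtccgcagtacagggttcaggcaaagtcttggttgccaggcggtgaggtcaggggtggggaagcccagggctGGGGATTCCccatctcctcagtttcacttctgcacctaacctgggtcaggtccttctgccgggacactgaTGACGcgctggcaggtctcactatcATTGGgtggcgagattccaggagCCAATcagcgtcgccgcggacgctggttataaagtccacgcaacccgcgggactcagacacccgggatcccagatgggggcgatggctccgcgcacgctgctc
B2m, chr2:122147437-122147736 (plus strand): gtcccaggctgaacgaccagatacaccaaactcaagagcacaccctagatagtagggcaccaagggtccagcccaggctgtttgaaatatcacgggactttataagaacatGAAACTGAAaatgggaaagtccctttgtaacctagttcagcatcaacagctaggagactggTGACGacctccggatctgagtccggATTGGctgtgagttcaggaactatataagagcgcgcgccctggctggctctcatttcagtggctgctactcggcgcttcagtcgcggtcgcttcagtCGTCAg
Tapbp, chr17:33919228-33919527 (plus strand): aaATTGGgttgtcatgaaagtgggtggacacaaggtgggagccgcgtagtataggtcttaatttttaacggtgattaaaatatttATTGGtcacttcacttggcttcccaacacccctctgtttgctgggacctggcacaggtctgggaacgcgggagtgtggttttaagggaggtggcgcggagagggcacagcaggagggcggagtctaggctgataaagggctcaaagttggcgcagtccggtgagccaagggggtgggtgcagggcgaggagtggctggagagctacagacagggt
Tap1, chr17:34187306-34187605 (plus strand): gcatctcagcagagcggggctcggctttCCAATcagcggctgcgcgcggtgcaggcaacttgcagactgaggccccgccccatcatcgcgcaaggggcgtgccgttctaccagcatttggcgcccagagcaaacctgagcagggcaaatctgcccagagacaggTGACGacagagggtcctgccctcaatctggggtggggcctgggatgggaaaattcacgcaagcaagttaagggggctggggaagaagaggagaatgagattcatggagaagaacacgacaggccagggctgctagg

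The H2-K1 and H2-D1 windows hold the same matches in the same order: a κB-like match, which reads GGGGATTCC in both, a CRE half-site, a CCAAT box on the other strand and a CCAAT box on the gene's strand. The κB-like match begins at base -111 from the H2-K1 start of the printed window and at base -171 from the H2-D1 start. H2-K1 has another RefSeq start, from which the same match begins at base -125. Among all 32851 windows of the same length, 5.82% hold a κB-like match, 20.8% a CRE half-site and 37.4% a CCAAT box. The B2m window has an interferon-response-like match, GAAACTGAA, at base -139, which 8.56% of all windows have, together with CRE half-sites and a CCAAT box. The Tapbp window showed CCAAT boxes alone. The window shared by Tap1 and Psmb9 holds 1 CCAAT match and 1 CRE half-site, and the H2-T23 window an interferon-response-like and a CCAAT match. A GAS-like match, held by 8.30% of all windows, was found only in the Psmb8 window among the 8. These are matches of letters to fixed patterns, and binding was not measured. Variants that depart from a pattern by a base were not searched. A window without a match may still hold such a variant. The H2-K1 and H2-D1 windows have no interferon-response-like match, but both read tttcacttc after the κB-like match. On the other strand these letters hold the parts on either side of NN in that pattern, in the opposite order. That order was not searched, so no lack of an interferon-response element is read from these windows.

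**Figure D1:**
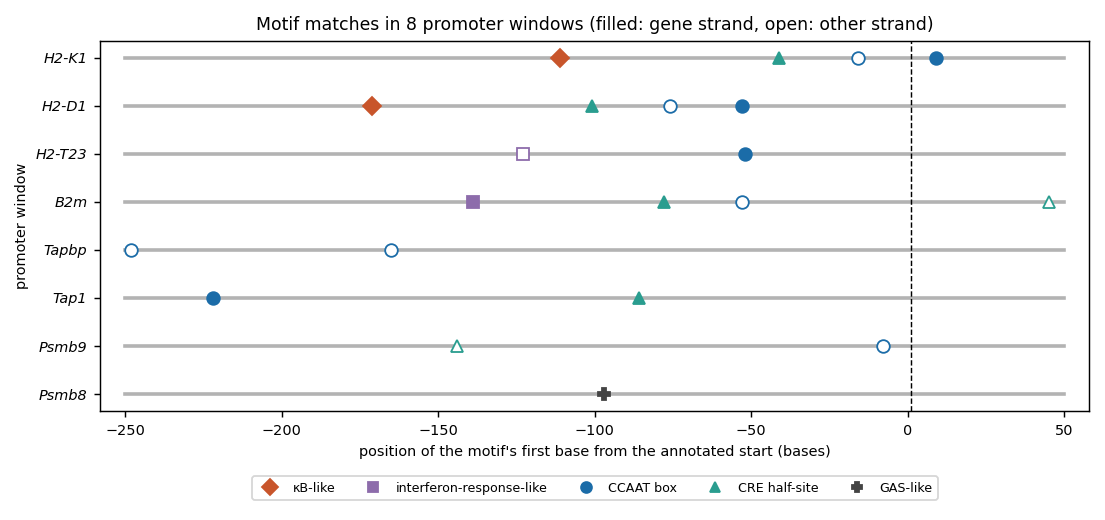
Motif matches in the promoter windows of 8 members, with the position of the first base of each match, in bases from the annotated start, on the x axis. Filled symbols are matches on the gene's own strand and open symbols those on the other strand. H2-K1 and H2-D1 show the same 4 matches in the same order, beginning at -111 and -171. Of the RefSeq starts of H2-K1, only that of the printed window is drawn.

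The heavy chains share sequence, which limits how reads can be told apart. Of the 50-base windows of the longest annotated protein-coding transcript, 8.79% in H2-K1, 14.3% in H2-D1 and 28.8% in H2-T23 occur also in transcripts of other genes, mostly other heavy chains, against 0 in B2m and 0.861% in Tap1. H2-T23 also overlaps the antisense gene RP24-443D19.8, which had 4.04 to 9.54 CPM across the libraries, more than H2-T23 in each condition. The whole annotated span of Zbtb22 lies inside that of Tapbp on the same strand, and the effect of this overlap on the Tapbp levels was not tested. NMuMG cells may carry other heavy chain alleles than the reference genome, and the effect of this on the heavy chain levels was not tested.

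The classical heavy chains were higher in E1KD than in NMuMG. In NMuMG, H2-K1 stood at 6.73 and 5.41 CPM, against 29.9 and 23.4 CPM in E1KD. H2-D1 stood at 1.35 and 1.53 CPM in NMuMG against 14.98 and 11.6 CPM in E1KD. In both genes every E1KD library lay above both NMuMG libraries, with mean CPM 4.39-fold higher for H2-K1 and 9.26-fold higher for H2-D1. On the log2(CPM + 1) scale, where fold changes of low genes are understated, H2-K1 rose by 1.96 (limma, SE 0.110; Benjamini-Hochberg adjusted p = 2e-09) and H2-D1 by 2.54 (SE 0.0914, adjusted p = 1.3e-11). In bulk RNA, more RNA per cell and more cells with high levels cannot be told apart. A gene was called at an unadjusted p under 0.001 and a log2 fold change of at least 1 in size. By that rule 2 of the 6 tested members were called higher in E1KD and 0 lower, where 6.44% of all tested genes were called higher and 2.99% lower. Without E1KD replicate 1 the differences were 1.80 for H2-K1 and 2.37 for H2-D1. When only the 4 NMuMG and E1KD libraries were fitted, H2-K1 had an unadjusted p of 0.00126 (limma) and was not called.

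The scaling of the libraries bears on the size of all differences with E1KD. The median log2 difference over all tested genes was 0.17, and 1102 genes were called higher and 512 lower, whereas with median-of-ratios scaling the median was 0.03 and the calls 769 and 677. Under that scaling H2-K1 was 1.77 and H2-D1 2.36 higher. Of 10 leukocyte markers, 2 had no read in E1KD, the macrophage marker Adgre1 among them, and their summed level was 2.79 to 2.80 CPM in NMuMG and 4.16 to 5.94 CPM in E1KD. Laptm5, a lysosomal membrane protein of leukocytes, was the 1 of the 4 tested markers called higher in E1KD (log2 fold change 1.18, adjusted p = 8.7e-08, limma), and it was called without E1KD replicate 1 too, at 1.13. The part of these markers in the heavy chain levels was not tested.

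B2m, the light chain of the complex, and Tapbp, its loading factor, differed by less than the limit on the fold change. B2m had 36.6 and 32.0 CPM in NMuMG and 64.7 and 37.2 CPM in E1KD, a log2 difference of 0.51 (adjusted p = 0.0171, limma). Tapbp had 21.2 and 21.03 CPM in NMuMG and 34.9 and 28.6 CPM in E1KD, a log2 difference of 0.56. E1KD replicate 1 was the higher E1KD library for both genes. Without it the B2m difference was 0.12 and its adjusted p was 0.171 (limma), and the Tapbp difference was 0.42.

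H2-T23, the nonclassical chain, lay on the other side, at 3.33 and 3.39 CPM in NMuMG and at 1.89 and 1.09 CPM in E1KD, without overlap. The log2 difference was -0.83 (adjusted p = 4.8e-05, limma), short of the limit on the fold change. Without E1KD replicate 1 it was -1.06, and H2-T23 was then called lower.

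The transporter genes Tap1 and Tap2 and the transactivator Nlrc5 were close to 0 in NMuMG and had reads in E1KD. Tap1 had 1 and 1 reads in the NMuMG libraries and 42 and 28 reads in E1KD (0.827 and 0.517 CPM). Scaled for library size, this was 36.5 times the NMuMG level, with a 95% counting interval of 9.74 to 308, while on the log2(CPM + 1) scale the difference was 0.71 (adjusted p = 3.7e-06, limma) and Tap1 was not called. Such intervals cover counting error only. Tap2 went from 2 reads over both NMuMG libraries to 11 over both E1KD libraries (ratio 5.74, interval 1.25 to 53.3), and Nlrc5 from 1 to 13 (ratio 13.6, interval 2.04 to 577). With E1KD replicate 2 alone these ratios were 28.3 (7.14 to 245) for Tap1, 6.07 (1.09 to 61.5) for Tap2 and 12.1 (1.47 to 559) for Nlrc5. With the pseudocount lowered to 0.1 and no filter, Tap1 was called higher in E1KD, its log2 fold change being 2.68 (adjusted p = 1.8e-06, limma).

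The immunoproteasome subunits stayed at the limit of detection. Psmb8 had 0 and 0 reads in NMuMG, 2 and 1 in E1KD, 5 and 4 in M1P and 1 and 7 in L1P, and 0 in each library of the second kind. Psmb9 had 0 to 8 reads in every library of the study. Over both NMuMG libraries, a count of 0 allows up to 0.0274 CPM (3 reads). No difference in these 2 genes was detectable at this depth in the 10 comparisons. Their standard counterparts were well expressed: Psmb5 had 16.4 to 36.5 CPM in the first kind of library.

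**Figure D2:**
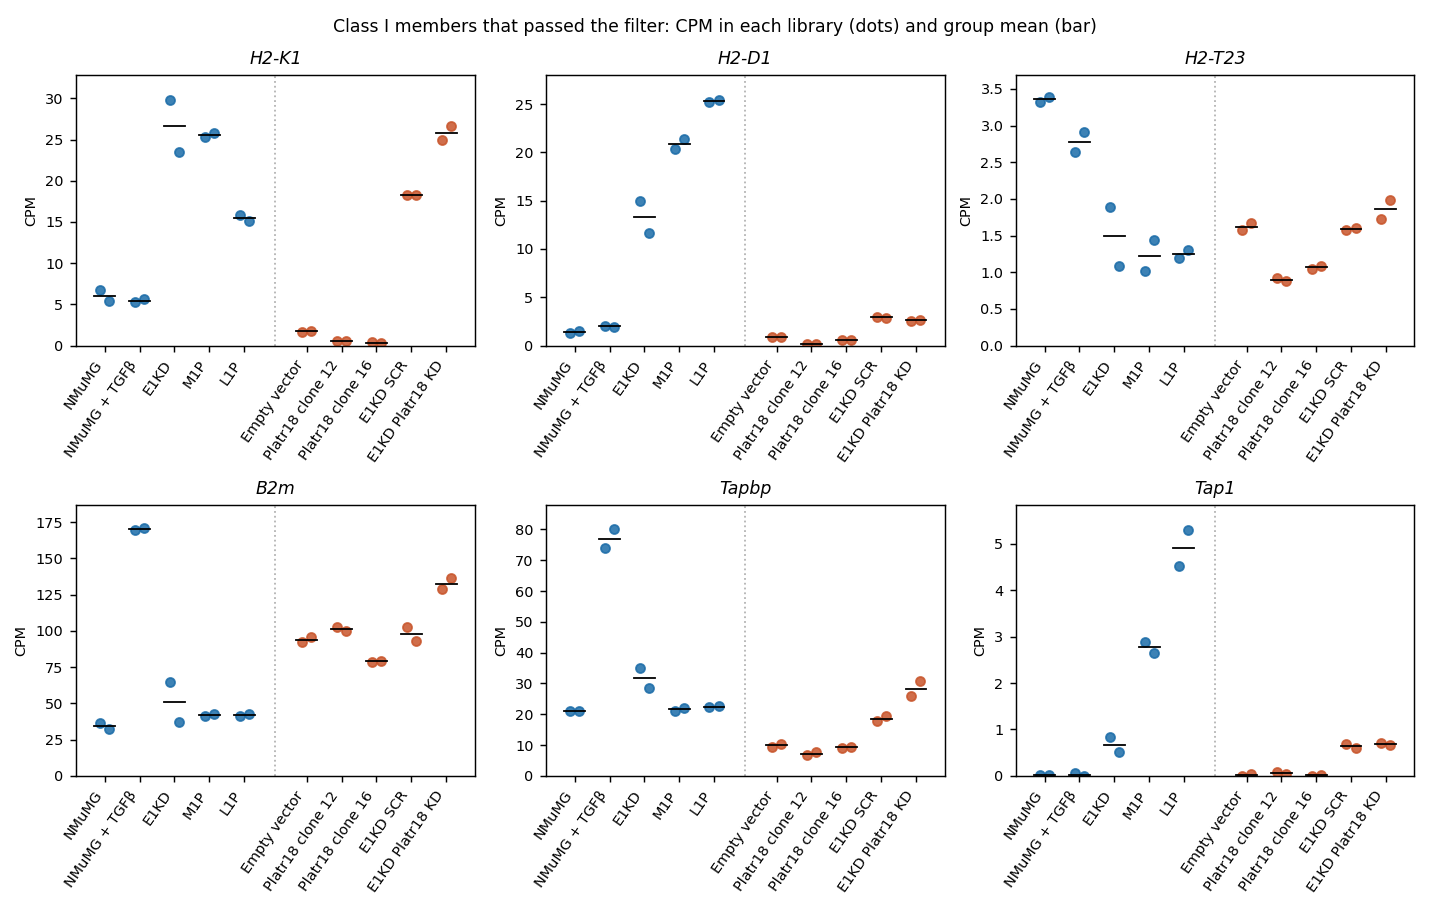
CPM of the 6 tested members in each library (y axis, from 0, a separate scale for each gene) by condition (x axis), with a dot for each of the 2 libraries and a bar for their mean. The dotted line parts the kinds of library, between which levels are not comparable. H2-K1 and H2-D1 are high in E1KD and the lines derived from it, and B2m and Tapbp reach their highest level of the first kind, 169 to 171 and 73.9 to 80.1 CPM, after TGFβ.

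TGFβ treatment raised the light chain and the loading factor. B2m went from 36.6 and 32.0 CPM in NMuMG to 169 and 171 CPM after TGFβ, and Tapbp from 21.2 and 21.03 CPM to 73.9 and 80.1 CPM. Mean CPM was 4.97-fold higher for B2m and 3.65-fold higher for Tapbp. Both were called, with log2 fold changes of 2.28 (SE 0.165, adjusted p = 2.3e-08, limma) and 1.82 (SE 0.103, adjusted p = 1.6e-09). With median-of-ratios scaling they were 2.45 and 1.99, and the share of higher genes among all calls went from 43.3% to 55.4%. Zbtb22, which overlaps Tapbp, had 30.9 and 31.5 CPM in NMuMG and 28.9 and 31.6 CPM after TGFβ. The leukocyte marker sum went from 2.79 to 2.80 CPM in NMuMG to 6.75 to 7.71 CPM after TGFβ. Of its 4 tested genes Csf1r, the receptor of the macrophage growth factor CSF-1, was called higher (1.35, adjusted p = 1.8e-07, limma), and 2 of the 10 were at 0. The part of these markers in the B2m and Tapbp levels was not tested. In all, 2 of the 6 tested members were called higher and 0 lower, where 5.85% of all tested genes were called higher and 7.66% lower.

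None of the 3 heavy chains was called after TGFβ. H2-K1 had 5.26 and 5.63 CPM, overlapping NMuMG, and its log2 difference was -0.13 with a 95% interval of -0.36 to 0.11. H2-D1 had 2.00 and 1.93 CPM after TGFβ, a log2 difference of 0.29 (adjusted p = 0.0158, limma) that did not reach the fold limit. H2-T23 had 2.64 and 2.92 CPM, a log2 difference of -0.21 (95% interval -0.47 to 0.05). Tap1 had 3 and 0 reads after TGFβ and Tap2 0 and 0, so that no change of the transporter was detectable.

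The difference between the E1KD and TGFβ responses was tested in the same fit, which compares E1KD with TGFβ-treated NMuMG since both are set against the same NMuMG libraries. It was called for 4 of the 6 tested members, where 23.3% of all tested genes were called. E1KD exceeded TGFβ by 2.09 on the log2 scale for H2-K1 (adjusted p = 5e-10, limma) and by 2.26 for H2-D1 (adjusted p = 2.9e-11). For B2m the difference was -1.77 (adjusted p = 2.5e-07, limma) and for Tapbp -1.26 (adjusted p = 6.4e-08), so these genes were higher after TGFβ. All 4 differences were called without E1KD replicate 1 as well, at 1.92 for H2-K1, 2.09 for H2-D1, -2.16 for B2m and -1.40 for Tapbp.

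**Figure D3:**
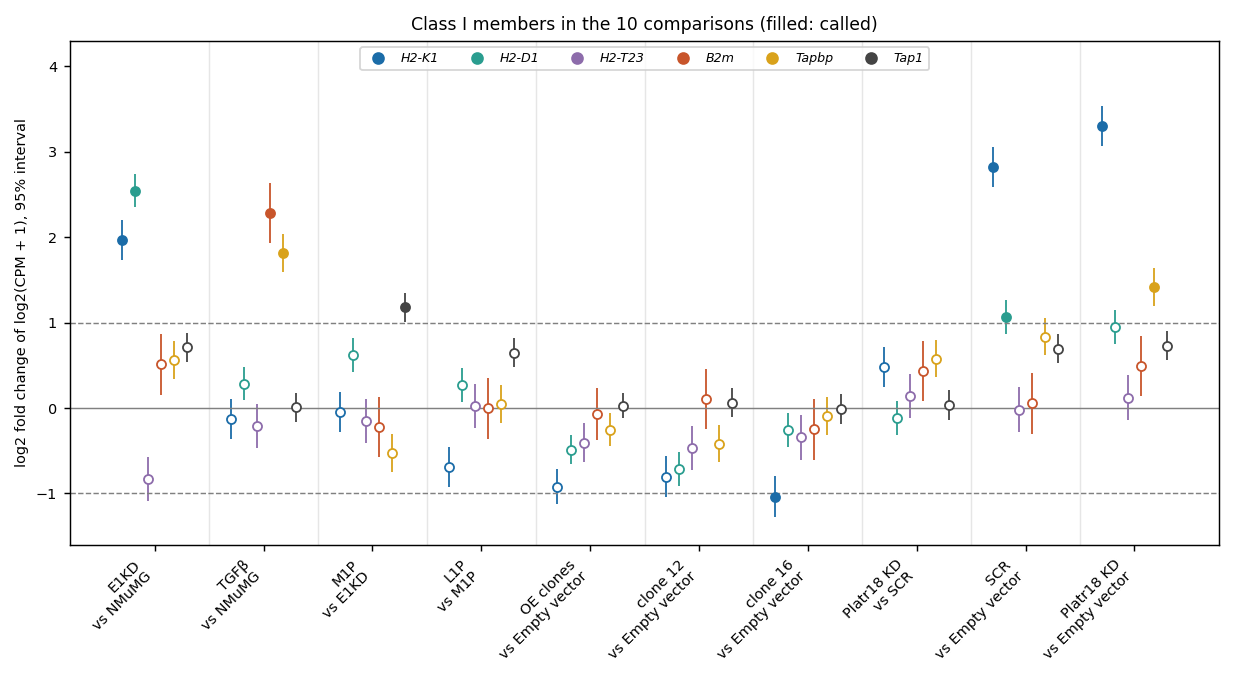
Log2 fold changes of the 6 tested members on the log2(CPM + 1) scale (y axis) in 10 comparisons (x axis), with 95% intervals from limma. Filled points are called members and dashed lines mark a log2 fold change of 1 in either direction. H2-K1 and H2-D1 pass the limit where hnRNP E1 is silenced against a control and B2m and Tapbp where TGFβ is added, and H2-D1 at 0.95 in E1KD Platr18 KD against Empty vector stays below it. Tapbp at 1.42 in that comparison, Tap1 at 1.18 in M1P against E1KD and H2-K1 at -1.04 in clone 16 are the other called points.

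In both M1P and L1P, the lines that had passed through the mouse, Tap1 was higher than in E1KD. Its counts were 42 and 28 reads in E1KD, 165 and 150 in M1P, and 231 and 273 in L1P. In CPM these are 0.827 and 0.517 for E1KD, 2.88 and 2.66 for M1P, and 4.53 and 5.30 for L1P. No library of one line overlapped those of another. From E1KD to M1P the log2 fold change of Tap1 was 1.18 (SE 0.0795, adjusted p = 4.4e-08, limma), and Tap1 was called. Without E1KD replicate 1 it was 1.31, and with only the E1KD and M1P libraries in the fit its unadjusted p was 0.00131 (limma) and it was not called. It was the 1 member called higher, and 0 were called lower, where 1.16% of all tested genes were called higher and 2.43% lower. Since Tap1 passed the filter on low values only through M1P and L1P, nothing is read from this count. With no filter Tap1 was called too, at 1.18 (adjusted p = 7.8e-07, limma). Over all genes 198 were called higher and 416 lower, and with median-of-ratios scaling 307 and 304. From M1P to L1P it was 0.65 (adjusted p = 5.2e-05, limma), below the fold limit.

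H2-D1 had the same order of lines. Its level was 14.98 and 11.6 CPM in the E1KD libraries, 20.3 and 21.4 CPM for M1P, and 25.2 and 25.5 CPM for L1P. Neither of its steps reached the fold limit, with log2 differences of 0.62 (adjusted p = 0.0001, limma) and 0.27 (adjusted p = 0.0557). H2-K1 did not share this order, standing at 25.4 and 25.8 CPM for M1P, within the range of E1KD, and at 15.8 and 15.1 CPM for L1P. Its log2 difference from M1P to L1P was -0.69 (adjusted p = 0.00049, limma). Between L1P and M1P no member was called, at a rate of 0.742% of all tested genes called higher and 0.468% lower. At an unadjusted p under 0.05, 3 of the 6 tested members differed between these lines, namely H2-K1, Tap1 and H2-D1, beside 29% of all tested genes. Tap1 passed the filter only through these lines, so nothing is read from this count.

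Tap2 and Nlrc5 had the order of Tap1 at lower levels. Tap2 had 5 and 6 reads in E1KD, 17 and 29 in M1P and 29 and 36 in L1P. Nlrc5 had 7 and 6 reads in E1KD, 14 and 24 in M1P and 22 and 34 in L1P. Taking both libraries together, the ratio of M1P to E1KD at equal library size was 3.86 (interval 1.97 to 8.26) for Tap2, 2.70 (1.41 to 5.52) for Nlrc5 and 4.15 (3.20 to 5.46) for Tap1. Against E1KD replicate 2 alone it was 3.65 (1.55 to 10.5) for Tap2, 3.01 (1.26 to 8.72) for Nlrc5 and 5.35 (3.63 to 8.19) for Tap1. The ratio of L1P to M1P was 1.57 (1.06 to 2.34) for Tap2 and 1.64 (1.06 to 2.54) for Nlrc5. With a pseudocount of 0.1 and no filter, Tap2 was called between M1P and E1KD, with a log2 fold change of 1.27, along with Tap1 at 1.92.

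**Figure D4:**
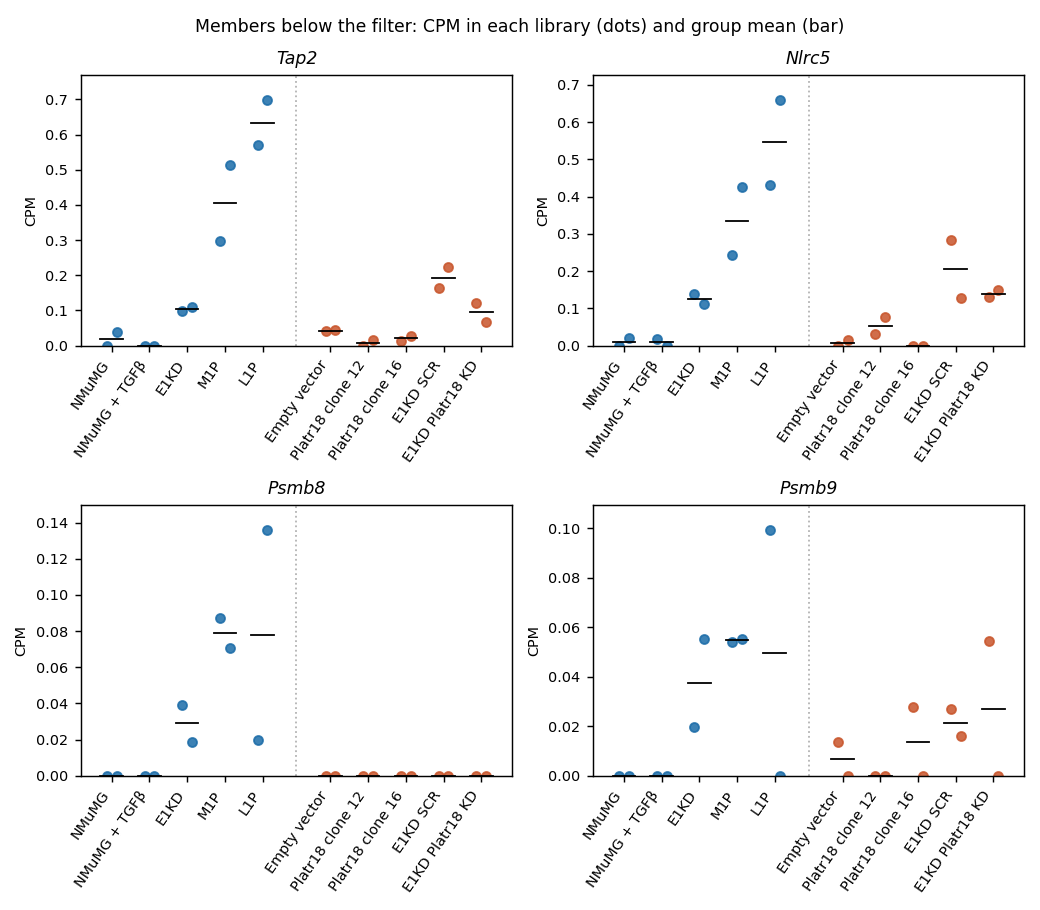
CPM of the 4 members below the filter (y axis, from 0, a separate scale for each gene) by condition (x axis), with a dot for each library and a bar for the mean of 2. Tap2 and Nlrc5 reach at most 0.699 and 0.660 CPM, in L1P, and Psmb8 and Psmb9 stay at 0 to 8 reads.

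B2m overlapped between these lines, at 41.5 and 42.5 CPM for M1P and 41.05 and 42.7 CPM for L1P. Tapbp stood at 21.2 and 22.1 CPM for M1P and at 22.4 and 22.5 CPM for L1P, and its log2 difference from E1KD to M1P was -0.53 (adjusted p = 0.00102, limma). The leukocyte marker sum was 4.16 to 5.94 CPM in E1KD, up to 6.72 CPM for M1P and 8.24 to 8.27 CPM for L1P. Lyz2, the lysozyme of myeloid cells, had 2.87 to 4.74 CPM in these lines and at most 0.276 CPM in E1KD, whereas the pan-leukocyte gene Ptprc had at most 0.0709 CPM there and Adgre1 was at 0. Csf1r was called lower in M1P than in E1KD (log2 fold change -1.04, adjusted p = 9e-06, limma), and Laptm5 had 1.44 and 1.27 CPM in E1KD against 0.384 and 0.195 CPM in M1P (-0.87, adjusted p = 5.4e-06). The part of host cells in the levels of Tap1 was not tested.

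The second kind of library holds hnRNP E1-silenced cells too, in E1KD SCR against Empty vector, and the classical heavy chains were higher there as well. H2-K1 had 1.68 and 1.75 CPM in Empty vector and 18.2 and 18.2 CPM in E1KD SCR, which was 10.6-fold higher by the means. Its log2 fold change was 2.82 (SE 0.110, adjusted p = 4.7e-11, limma). H2-D1 had 0.863 and 0.869 CPM in Empty vector and 2.95 and 2.87 CPM in E1KD SCR, a log2 fold change of 1.07 (adjusted p = 3.3e-07). Both were called higher and no member lower, where 2.91% of all tested genes were called higher and 3.07% lower. Tapbp had 9.41 and 10.5 CPM in Empty vector and 17.7 and 19.3 CPM in E1KD SCR, a log2 difference of 0.84 (adjusted p = 1.3e-05, limma).

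Tap1 had 0 and 2 reads in Empty vector and 50 and 38 reads in E1KD SCR, a ratio of 45.7 at equal library size (interval 12.3 to 383). Nlrc5 went from 1 read over both Empty vector libraries to 29 over both E1KD SCR libraries (ratio 30.1, interval 4.99 to 1230), and Tap2 from 6 to 26 (ratio 4.50, interval 1.81 to 13.4). With a pseudocount of 0.1 and no filter all of these 3 were called higher, with log2 fold changes of 2.70, 1.46 and 1.03. B2m and H2-T23 overlapped between these groups. B2m had 92.0 and 96.0 CPM in Empty vector and 103 and 92.7 CPM in E1KD SCR, and the H2-T23 log2 difference was -0.02 (95% interval -0.28 to 0.24), against -0.83 in E1KD.

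The response to hnRNP E1 silencing was then compared between the kinds of library. The difference was called for 1 of the 6 tested members, H2-D1, at a rate of 3.51% of all tested genes. H2-D1 rose by 1.48 more on the log2 scale in the first kind (SE 0.129, adjusted p = 1.5e-06, limma). H2-K1 differed by -0.86 (adjusted p = 0.00119), and with median-of-ratios scaling by -1.02, which was called. H2-T23 differed by -0.81 (adjusted p = 0.00364, limma). Without E1KD replicate 1 the differences were 1.31 for H2-D1, -1.03 for H2-K1 and -1.04 for H2-T23. The kinds of library differ in their vectors and in how the libraries look as a whole, and these cannot be told apart from the cells.

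Cells overexpressing Platr18 had less of the classical heavy chains than Empty vector cells. H2-K1 had 1.68 and 1.75 CPM in Empty vector, 0.594 and 0.521 CPM in clone 12, and 0.402 and 0.251 CPM in clone 16. H2-D1 had 0.863 and 0.869 CPM in Empty vector, 0.134 and 0.138 CPM in clone 12, and 0.526 and 0.600 CPM in clone 16. For both genes each clone library lay below both Empty vector libraries. The lowest counts behind these values were 18 reads for H2-K1, in clone 16, and 9 reads for H2-D1, in each library of clone 12.

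By the mean of the clones, no member was called, where 0.427% of all tested genes were called higher and 1.03% lower. The log2 difference was -0.92 for H2-K1 (adjusted p = 6.2e-06, limma), -0.49 for H2-D1 (adjusted p = 0.00036) and -0.40 for H2-T23 (adjusted p = 0.00954). At an unadjusted p under 0.05, 4 of the 6 tested members were lower, the last being Tapbp, beside 20.1% of all tested genes lower by that measure. At these levels the pseudocount decides the call: with 0.1 in place of 1, H2-K1 at -1.79 and H2-D1 at -1.29 were both called lower.

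Taken one by one, clone 12 had no member called, at 1.13% of all tested genes called higher and 2.52% lower, and clone 16 had H2-K1 alone called lower, at 0.772% higher and 1.01% lower. In clone 12 the log2 difference was -0.80 for H2-K1 and -0.72 for H2-D1, and 4 of the 6 tested members had an unadjusted p under 0.05, all lower, where 25.2% of all tested genes did so in that direction. In clone 16 it was -1.04 for H2-K1 (adjusted p = 9.5e-06, limma) and -0.26 for H2-D1 (adjusted p = 0.0589). The H2-K1 call in clone 16 is close to the limit and was lost without replicate 2 of that clone, at -0.96. By mean CPM, H2-K1 was 3.08-fold lower in clone 12 and 5.26-fold lower in clone 16, and H2-D1 6.37-fold and 1.54-fold lower.

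No member differed between clones 16 and 12 by the call rule, at a rate of 4.38% of all tested genes. H2-D1 differed by 0.46 on the log2 scale (95% interval 0.26 to 0.66, adjusted p = 0.00097, limma), and with a pseudocount of 0.1 by 1.49, which was called. H2-K1 differed by -0.23 (95% interval -0.47 to 0.00). B2m was 92.0 and 96.0 CPM in Empty vector, 102 and 99.8 CPM in clone 12 and 78.8 and 79.1 CPM in clone 16, with 95% intervals of the difference from Empty vector of -0.25 to 0.46 and -0.60 to 0.10. Tap1, Tap2 and Nlrc5 had at most 5 reads in any library of the clones.

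Silencing Platr18 in E1KD cells left H2-K1 and H2-D1 above their Empty vector level. H2-K1 stood at 18.2 and 18.2 CPM in E1KD SCR and at 25.0 and 26.7 CPM with Platr18 silenced, so that the log2 difference was 0.48 (adjusted p = 0.0065, limma). H2-D1 stood at 2.95 and 2.87 CPM in E1KD SCR and at 2.57 and 2.64 CPM with Platr18 silenced, so that the log2 difference was -0.12 with a 95% interval of -0.31 to 0.08. No member was called in this comparison, where 0.485% of all tested genes were called higher and 0.994% lower. At an unadjusted p under 0.05, 3 of the 6 tested members were higher (H2-K1, B2m and Tapbp), where 13.1% of all tested genes were. B2m went from 103 and 92.7 CPM to 129 and 136 CPM, and Tapbp from 17.7 and 19.3 CPM to 25.9 and 30.7 CPM, with log2 differences of 0.44 and 0.58.

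Tap1 overlapped between cells with and without Platr18 silencing, at 0.677 and 0.604 CPM for E1KD SCR and 0.699 and 0.661 CPM for E1KD Platr18 KD. From its reads the ratio was 1.06, with a 95% counting interval of 0.819 to 1.37. Tap2 had 12 and 14 reads in E1KD SCR and 18 and 10 in the more deeply sequenced E1KD Platr18 KD libraries, a ratio of 0.501 (interval 0.283 to 0.889). For Nlrc5 the ratio was 0.658 (interval 0.399 to 1.10). Against Empty vector, E1KD Platr18 KD had H2-K1 at a log2 fold change of 3.30 (adjusted p = 8.1e-12, limma) and Tapbp at 1.42 (adjusted p = 4.8e-08), and these 2 of the 6 tested members were called higher and 0 lower, where 2.94% of all tested genes were called higher and 3.68% lower. H2-D1, at 0.95 (adjusted p = 1e-06), lay just below the limit.

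The other genes of antigen presentation were read from lists of heavy chains, class I-like genes, loading factors, proteasome partners, regulators, interferon signalling and class II genes. Of the 13 other heavy chains, 6 were tested. H2-Q4 was called higher in all 3 comparisons of hnRNP E1-silenced cells with a control. It had 0.655 and 0.509 CPM in NMuMG and 9.51 and 7.19 CPM in E1KD (log2 fold change 2.55, adjusted p = 3.1e-11, limma), and 0.137 and 0.217 CPM in Empty vector against 2.45 and 2.33 CPM in E1KD SCR and 3.51 and 3.88 CPM in E1KD Platr18 KD. H2-Q1 was called in E1KD alone, at 1.16, and not without E1KD replicate 1, at 0.71. The H2-Q genes resemble one another closely, so the division of reads among them is uncertain. The median log2 difference of the 6 tested heavy chains was 0.28 between E1KD and NMuMG, beside 0.17 over all tested genes, and without E1KD replicate 1 it was 0.11 beside 0.00. After TGFβ H2-Q4 had 0.284 and 0.416 CPM, no heavy chain of the list was called by limma, and 2 of the 6 had an unadjusted p under 0.05, as did 59.1% of all tested genes.

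Among the loading factors, Erap1, the aminopeptidase that trims peptides in the endoplasmic reticulum, had 6.13 and 6.48 CPM in NMuMG, 20.3 and 19.2 CPM after TGFβ and 13.9 and 8.93 CPM in E1KD. Erap1 was the 1 of 6 loading and trimming genes called after TGFβ (log2 fold change 1.50, adjusted p = 2.9e-07, limma), and 0 were called in E1KD, where 5 of the 6, and 61.4% of all tested genes, had an unadjusted p under 0.05. Erap1 itself differed by 0.74 in E1KD and by 0.44 without E1KD replicate 1. The median log2 difference of these 6 was 0.60 after TGFβ, beside -0.08 over all tested genes, and 0.52 in E1KD, beside 0.17. The latter was 0.28 beside 0.00 without E1KD replicate 1. Calr, which encodes calreticulin, was called only in E1KD Platr18 KD against Empty vector (1.27), together with the tapasin homolog Tapbpl (1.02). Of the 4 class I-like genes, Fcgrt (1.49), the neonatal Fc receptor, and Mr1 (1.26), which presents vitamin B metabolites, were called higher after TGFβ. Hfe (1.59), a regulator of iron uptake, was called higher in E1KD, and Cd1d1 (1.10), which presents lipids, in L1P against M1P. Mr1 was also called higher in M1P against E1KD and lower in clone 16 and in E1KD SCR against Empty vector.

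**Figure D5:**
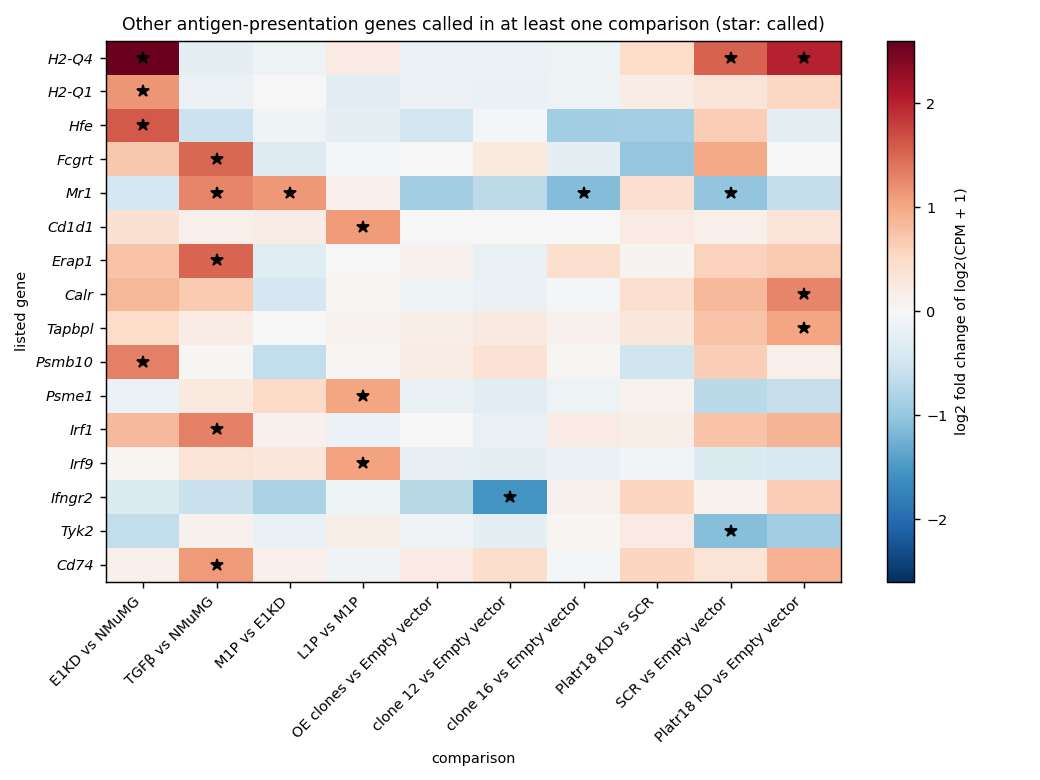
Log2 fold changes on the log2(CPM + 1) scale (color) of the 16 listed antigen-presentation genes called in at least 1 comparison (y axis) in the 10 comparisons (x axis), with a star where a gene was called. H2-Q4 is called in the 3 comparisons of hnRNP E1-silenced cells with a control, and Fcgrt, Mr1, Erap1, Irf1 and Cd74 after TGFβ.

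Of the 8 proteasome partners, Psmb10, the third inducible subunit, was called higher in E1KD (log2 fold change 1.31, adjusted p = 1.7e-05, limma) but not without E1KD replicate 1 (0.93). It had 1.91 and 1.85 CPM in NMuMG and 8.25 and 4.49 CPM in E1KD, and 3.55 to 3.98 CPM in M1P and L1P. Psme1, a subunit of the proteasome activator PA28, was called higher in L1P against M1P (1.03). Of the 18 regulators of class I transcription, 17 were tested. The interferon-response factor Irf1 was called higher after TGFβ, from 12.1 and 12.2 CPM to 30.4 and 33.1 CPM (1.31, adjusted p = 7e-08, limma), and it had 26.7 and 19.4 CPM in E1KD, a log2 difference of 0.85 from NMuMG that became 0.63 without E1KD replicate 1. Irf9 was called higher in L1P against M1P (1.05). None of the 17 was called between E1KD and NMuMG by limma. Of them 8 had an unadjusted p under 0.05, as did 61.4% of all tested genes. Their median log2 difference was 0.09 beside 0.17 over all tested genes. Without E1KD replicate 1 the median was -0.09 beside 0.00.

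The interferon genes on the list were near 0 throughout: Ifnb1 had at most 0.02 CPM and Ifng at most 0.125 CPM in any library. Other interferon genes were not examined. Of the 9 interferon signalling genes, 7 were tested, and 2 calls were made, both lower: Ifngr2, a chain of the interferon-γ receptor, in clone 12 (log2 fold change -1.55) and Tyk2, a kinase of the interferon receptors, in E1KD SCR against Empty vector (-1.10). Class II genes were near 0. H2-Aa and H2-Ab1 had at most 1 read in each library, and of the 7 listed class II genes only Cd74, the invariant chain, was tested. Cd74 was called higher after TGFβ (1.10), from 0.0708 and 0.0754 CPM in NMuMG to 1.19 and 1.43 CPM.

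The members had unlike profiles. Over the 10 condition means, each centred within its kind of library, Pearson's r was 0.723 between H2-K1 and H2-D1, 0.908 between H2-D1 and Tap1, and 0.816 between B2m and Tapbp, but -0.302 between H2-D1 and B2m and -0.617 between H2-T23 and Tap1. These are descriptions over 10 points that share libraries and controls. Among the genes outside the 10 members whose profile was most like the mean profile of the members were Ttpal (r = 0.98), Msrb3 (0.969), Ppm1h (0.965) and Eda2r (0.961), followed by Paqr8, Sec24d, Ndst2, Parp9 and Zbtb10, out of 7327 genes whose centred means span at least 1 on the log2 scale. Msrb3 had 0.142 and 0.283 CPM in NMuMG, 1.95 and 2.25 CPM after TGFβ and 12.8 and 10.9 CPM in E1KD. Parp9 had 2.13 and 2.50 CPM in NMuMG, 3.98 and 3.81 CPM after TGFβ, and 6.06 and 4.51 CPM in E1KD.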

How the data were processed

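The values the authors deposited are CPM, counts scaled to 1e+06 reads a library, of 54986 genes. An offset of 0.0001 that they had added was taken off. By the methods and the submitters' processing notes, reads were aligned with Bowtie2 2.2.5 to GRCm38.p6 and assigned to genes of the M18 annotation by expectation-maximization in Partek. That step can share reads among similar heavy chain genes. Whether counting used strand is not given in the sources used here. Values under 30 reads were whole multiples of 1 read, within 0.05 reads, for 91.2% to 92.5% of the first kind of library and 97.2% to 97.8% of the second, so reads of single genes are given rounded and no count model was used.

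On the log2(CPM + 1) scale, limma 3.58.1 (R 4.3.3) was run with trend, a mean for each of the 10 conditions and 10 residual degrees of freedom. The 17106 genes that reached 1 CPM in 2 or more libraries entered. Adjusted p-values are Benjamini-Hochberg values over all of them. With 2 libraries against 2, an exact permutation test cannot go below 0.333. Read ratios have exact conditional 95% intervals, and floors are 3 reads over the group. Promoters and motifs came from RefSeq, 50-base windows from GENCODE M21 transcripts. The 10 members, the gene lists and the rule that names every listed gene called in a comparison were chosen with earlier results of these data known. Alternatives were other pseudocounts, filters, scalings, sample sets, call rules and a replicate block. Libraries were grouped by their labels. Python 3.11.15, numpy 2.4.6, pandas 2.3.3, scipy 1.17.1 and matplotlib 3.10.9 were used. The imaging, RT-PCR and animal data of the study were not analysed here. Of the genes with profiles most like the members, 1 is not reported here.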

Additional observations from a re-analysis of the deposited data

Results flagged for a closer look

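The responses to hnRNP E1 silencing and to TGFβ differed, by a test of the difference itself, in 4 members: H2-K1 by 2.09, H2-D1 by 2.26, B2m by -1.77 and Tapbp by -1.26 on the log2 scale (E1KD minus TGFβ). H2-K1 and H2-D1 were higher in both E1KD libraries than in both TGFβ libraries, and B2m and Tapbp lower. The response of H2-D1 to hnRNP E1 silencing was larger by 1.48 on the log2 scale in the first kind of library than in the second. No group had enough libraries for a check of single outlying values.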

How the results depend on the processing

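Each count of called members was recomputed under every alternative. Of the counts, 161 stayed within 1.5 times and 27 did not, and all under the replicate block stayed. It gave 2 for E1KD, 2 for TGFβ, 1 for M1P and 0 for L1P, as without it. The share of all tested genes called under that block is not given. The replicate numbers did not pair the libraries (the correlations of same-numbered deviations ran from -0.12 to 0.13), and for clone 16, where numbers could be crossed, the crossed replicate block gave 1 call as well. With a pseudocount of 0.1, 4 members were called in E1KD, 2 in the clones' mean, 2 in clone 12, 4 in E1KD Platr18 KD against Empty vector, 2 in the difference between library kinds and 1 between clones. With that pseudocount and no filter, added after the data were seen, 4 were called in E1KD, H2-T23 among them as lower. In M1P, the clones' mean and clone 12 there were 2 each, and 5 each in E1KD SCR and E1KD Platr18 KD against Empty vector. With the filter, the share of all tested genes called was 13.8% in E1KD, 3.6% in the clones' mean and 6.78% in clone 12. It was 10.3% in E1KD Platr18 KD against Empty vector, 5.75% between library kinds and 7.96% between clones. With no filter it was 7.88% in E1KD, 3.92% in M1P, 1.92% in the clones' mean and 3.77% in clone 12. Against Empty vector it was then 5.59% in E1KD SCR and 5.62% in E1KD Platr18 KD. With an adjusted p under 0.05 and no limit on the fold, the counts were 6 in E1KD, 3 in M1P and 2 in L1P. The clones' mean gave 4, clone 12 gave 4 and Platr18 silencing gave 2. Against Empty vector, E1KD SCR gave 4 and E1KD Platr18 KD gave 5. By that rule, the share of all tested genes called was 56.6% in E1KD, 49.1% in M1P and 18.5% in L1P. It was 28.8% for the clones' mean, 39.6% for clone 12 and 19.5% for Platr18 silencing. Against Empty vector it was 42.6% for E1KD SCR and 41.5% for E1KD Platr18 KD. Tap1 is in the M1P and L1P counts and passed the filter only through those lines, so nothing is read from these counts. With the compared groups alone, 1 was called in E1KD and 0 in M1P. The share of all tested genes called is not given for these fits, so nothing is read from these counts. Among genes averaging 5 CPM or more 0 were called in M1P, since Tap1 is then not tested. Equal-sums scaling left 0 in clone 16, where 286 of the 17106 tested genes were called. Median-of-ratios scaling gave 2 in the difference between kinds, where 540 genes were called. When each library was left out, H2-T23 in E1KD ran from -1.06 to -0.59 and H2-K1 in clone 16 from -1.12 to -0.96. In the difference between kinds, H2-D1 ran from 1.31 to 1.65, H2-K1 from -1.03 to -0.69 and H2-T23 from -1.04 to -0.58.

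Directions turned in 21 of the member values, none of them called, and the cause was not tested. H2-K1 after TGFβ became 0.0183 with median-of-ratios scaling and ran from -0.2623 to 0.0067 when each library was left out, and Tap1 from -0.0261 to 0.0444. From E1KD to M1P, H2-K1 became 0.15 with median-of-ratios and 0.12 with equal-sums scaling, and the ranges without each library were -0.2153 to 0.1207 for H2-K1, -0.3843 to 0.0829 for H2-T23 and -0.613 to 0.171 for B2m, the upper end being that without E1KD replicate 1. From M1P to L1P, B2m became 0.0087 with equal-sums scaling. Without each library, B2m ran from -0.0316 to 0.023 and H2-T23 from -0.1154 to 0.1599 in that step, Tap1 from -0.0312 to 0.01 in clone 16, and H2-T23 from -0.0431 to 0.0066 and B2m from -0.0196 to 0.126 in E1KD SCR. The Tap1 difference between kinds became -0.0256 with a pseudocount of 0.1 and -0.0536 with median-of-ratios scaling, and ran from -0.1174 to 0.1502 without each library. The median log2 difference of all tested genes was 0.17 in E1KD and -0.17 from E1KD to M1P, and 0.03 and -0.02 with median-of-ratios scaling. That scaling took the called genes in E1KD from 1102 higher and 512 lower to 769 and 677, and left H2-K1 at 1.77 and H2-D1 at 2.36. Depth limits Psmb8, Psmb9, Tap2 and Nlrc5 to counts of reads.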
